A study of Mus musculus with 11 samples.

Results

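Transcripts of 8 genes for signals that act on blood vessels, Vegfa, Vegfb, Vegfc, Pgf, Edn1, Adm, Nrp1 and Nrp2, were followed in mouse bile duct cells through an injury diet and its withdrawal. The genes were picked by their symbols from a table of 43346 genes, and each symbol was found once. RNA came from liver cells of male C57BL/6 mice aged 14 to 16 weeks, held back by beads against EpCAM, an epithelial surface protein, and named cholangiocytes in the labels. Of the 11 libraries, 4 were Control (chow), 4 were DDC (10 days of a diet with DDC, which causes cholestatic injury in mouse liver) and 3 were R15 (10 days of that diet, then 15 days back on chow). All mice were labelled wildtype, and the cells were passed over the magnetic column again to raise their purity. Values are FPKM, which scale the reads of a gene by its length and by the library's total, so that levels can be set side by side between genes. The p-values measure the spread between libraries, since the labels do not say how the samples of a group were kept apart before sequencing.

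Vascular endothelial growth factors are secreted ligands that bind receptor tyrosine kinases on endothelial cells. Vegfa acts mainly through Kdr (VEGFR2), Vegfb and Pgf bind Flt1 (VEGFR1), and Vegfc binds Flt4 (VEGFR3), the receptor of lymphatic vessels. Nrp1 and Nrp2, the neuropilins, are co-receptors for these ligands and for class 3 semaphorins. Edn1 is the precursor of endothelin-1, a vasoconstrictor peptide, and Adm is the precursor of adrenomedullin, a vasodilator peptide. In the liver the bile ducts are fed by a plexus of fine arterial branches that lies around them, and cholangiocytes are one source of VEGF for it.

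Recovered read totals ran from 49339240 to 72929107 per library, and a value between 0.9 and 1.1 FPKM rested on a median of 122.5 reads. All 8 cholangiocyte markers were detected in every group, with summed levels of 7831 to 10799 FPKM in Control, 9295 to 10365 in DDC and 8371 to 9443 in R15. Other cells left transcripts as well, and their levels stood apart between libraries. The summed level of 16 endothelial markers ran from 143 to 620 FPKM in Control, from 38.4 to 85.8 in DDC and from 95.0 to 308 in R15, and that of 12 macrophage markers from 135 to 161, from 1402 to 2536 and from 147 to 794. In such bulk samples, fewer cells of a type and less RNA per cell cannot be told apart. Control 1 to 3, DDC 1 and R15 3 held pancreatic acinar transcripts, with summed levels of 747 to 6287 FPKM, against 6.07 to 11.4 in the other 6 libraries. Summed hepatocyte markers ran from 2935 to 3648 FPKM in Control, from 1116 to 1636 in DDC and from 1829 to 2503 in R15, lowest in DDC as Vegfa was. Their mean log2(FPKM + 1), however, overlapped between Control (4.45 to 5.46) and DDC (4.11 to 5.09). By the test described next, 3 of these 8 markers fell and 2 rose in DDC against Control. Stellate, fibroblast and mural markers ran from 33.0 to 62.9, from 422 to 510 and from 166 to 230, and platelet markers from 10.5 to 17.0, from 32.3 to 48.7 and from 18.2 to 43.7. Neither sum stands for its whole list. Of 4 tested stellate, fibroblast and mural markers 2 rose and 1 fell in DDC against Control, with Rgs5 changing most (log2 change 3.61). The mean log2(FPKM + 1) of all 12 markers of this list, tested or not, was 0.86 to 0.93 in Control and 1.28 to 1.42 in DDC. Of the 4 platelet markers 1 rose, Pf4 (log2 change 2.25), and 1 fell. The part of any of these cells in the values of the 8 genes was not tested. The endothelial adjustment given with the genes cannot settle it, since every DDC library lay below every Control and R15 library in endothelial level.

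Of the 8 genes, 7 reached 1 FPKM in at least 3 libraries and entered the test, which ran over 15264 genes in limma on log2(FPKM + 1). A gene is said here to have risen or fallen where its p, adjusted by Benjamini-Hochberg over all of them, was under 0.05. In DDC against Control, Vegfa, Vegfb and Vegfc fell, Edn1 rose, and Adm, Nrp1 and Nrp2 did not pass. That is 4 of 7, where 65.4% of all genes tested passed (33.5% higher and 31.9% lower), so the share of the 7 was no higher than the background. In R15 against DDC, Vegfa and Vegfc rose and none of the 7 fell, against 62.2% of all genes passing (33.4% higher and 28.8% lower). In R15 against Control, Edn1 alone passed and was higher, against 9.58% of all genes (6.87% higher and 2.72% lower). The same shares are the background for every list count given here. Calls in R15 against Control lean on the spread shared by all 3 groups. In that comparison 1463 genes passed, and 317 when only the 2 groups were fitted. Groups with no overlap between their libraries, as named for single genes, were common: they held for 61.3% of all genes tested in DDC against Control, 66.6% in R15 against DDC and 21.3% in R15 against Control. The median log2 change of the 7 was -0.39, 0.12 and -0.19 in these 3 comparisons, beside 0.00, 0.04 and 0.05 for all genes tested. The comparisons share samples, so they are not independent of each other. Vegfc entered the test through its Control and R15 libraries, and Adm through 2 Control libraries and R15 2, so that their low libraries played no part in their entry. The same holds for Flt1, Ackr3 and Ednrb, partners of these signals described here, whose DDC libraries were all under 1 FPKM. Other genes in the list counts, among them Sema3d, Dll4, Stc2 and Emcn, also had every DDC library under 1 FPKM.

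**Figure D1:**
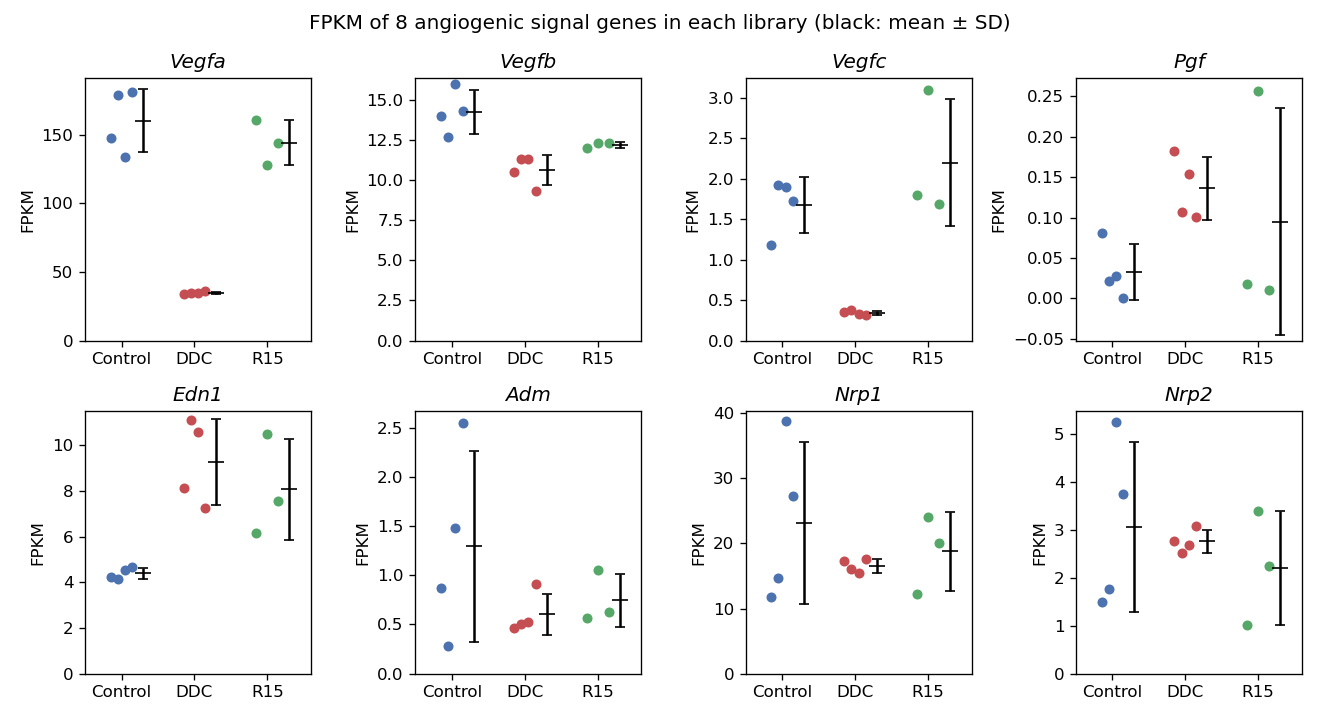
FPKM of each gene (vertical axes, each with its own scale) in every library of Control, DDC and R15 (horizontal axes), with points for libraries and bars for the group mean and SD (n = 4, 4 and 3). Vegfa lies at 34.2 to 36.2 FPKM in DDC, under every Control and R15 library, while the Control libraries of Nrp1 and Nrp2 are spread widely.

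Vegfa was the most abundant of the 8 genes in every group. Its level was 148, 179, 134 and 181 FPKM in Control 1 to 4, then 34.2, 34.6, 34.4 and 36.2 in DDC 1 to 4, and 161, 128 and 144 in R15 1 to 3. Every DDC library was below every other library, and the DDC libraries lay closer together (34.8 ± 0.911 FPKM, SD, n = 4) than those of Control (161 ± 23.3, n = 4) or R15 (144 ± 16.4, n = 3). The log2 fold change was -2.16 ± 0.10 (SE; 95% interval -2.39 to -1.94; adjusted p = 2.1e-07, limma) in DDC against Control and 2.01 ± 0.11 (1.77 to 2.26; adjusted p = 1.3e-06) in R15 against DDC. By size, this was rank 115 among all negative log2 changes of DDC against Control and rank 81 among all positive ones of R15 against DDC. Between R15 and Control the groups overlapped, with a log2 difference of -0.15 (interval -0.39 to 0.10; adjusted p = 0.39).

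Vegfb and Vegfc, which were far less abundant, differed from each other in how much they moved. Vegfb stood at 14.0, 12.7, 16.0 and 14.3 FPKM in Control, 10.5, 11.3, 11.3 and 9.31 in DDC, then 12.0, 12.3 and 12.3 in R15. No library of one group overlapped another group, with R15 in between, although only the fall in DDC passed. The log2 change of Vegfb was -0.39 ± 0.07 (interval -0.55 to -0.23; adjusted p = 8.6e-04, limma) in DDC against Control, 0.19 ± 0.08 (0.01 to 0.36; adjusted p = 0.059) in R15 against DDC, and -0.20 ± 0.08 (-0.38 to -0.03; adjusted p = 0.13) in R15 against Control. The Vegfb value for R15 against DDC sat at the threshold: it passed without Control 2 (adjusted p = 0.039) and without Control 3 (adjusted p = 0.035) by limma, and after scaling each library to one FPKM total it was 0.30 (adjusted p = 0.0061), in a range of 0.0061 to 0.36 over 24 alternatives. Vegfc stood at 1.18, 1.92, 1.90 and 1.72 FPKM in Control, 0.350, 0.377, 0.334 and 0.321 in DDC, then 1.80, 3.10 and 1.69 in R15. All 4 DDC libraries lay under every other library, and R15 2 was the highest of all. The mean of Vegfc was 4.87-fold higher in Control (1.68 ± 0.348 FPKM) than in DDC (0.345 ± 0.0241), a ratio close to the 4.61 of Vegfa. On the log2(FPKM + 1) scale, which understates changes at such low levels, Vegfc fell by 0.98 ± 0.14 in DDC (adjusted p = 1.4e-04, limma) and rose by 1.22 ± 0.15 in R15 against DDC (adjusted p = 8.6e-05). R15 against Control gave 0.24 for Vegfc (interval -0.10 to 0.57; adjusted p = 0.32).

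Pgf, the placental growth factor, was close to the limit of detection. It had 9, 2, 3 and 0 reads in Control 1 to 4, 21, 11, 12 and 9 in DDC 1 to 4, and 2, 26 and 1 in R15 1 to 3. The 0 in Control 4 allows a level of up to 0.0282 FPKM, the worth of 3 reads, by counting error only. The means were 0.0325 ± 0.0343 FPKM in Control, 0.136 ± 0.0386 in DDC, then 0.0951 ± 0.140 in R15. All 4 DDC libraries lay above all 4 Control libraries, and 26 of the 29 reads in R15 came from R15 2. With no filter on low values, DDC against Control gave a log2 difference of 0.14 ± 0.06 (adjusted p = 0.13, limma) for Pgf, on a scale whose pseudocount of 1 shrinks differences at such levels. The ratio of the means was 4.18, from 14 reads in Control and 53 in DDC.

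The stretches upstream of the transcription starts are shown for the 3 VEGF genes that fell in DDC. Whether what they hold bears on the changes was not tested. Each line gives the 250 bases before a start, 5′ to 3′ on the gene's strand, from RefSeq on GRCm38.p6, the patch release of mm10, the build given for the deposited table. Capitals mark the CCAAT box, a promoter element bound by the NF-Y factor, and the core of the hypoxia response element bound by HIF (ACGTG or GCGTG), either strand.
Vegfa, chr17:46032378-46032627, minus strand: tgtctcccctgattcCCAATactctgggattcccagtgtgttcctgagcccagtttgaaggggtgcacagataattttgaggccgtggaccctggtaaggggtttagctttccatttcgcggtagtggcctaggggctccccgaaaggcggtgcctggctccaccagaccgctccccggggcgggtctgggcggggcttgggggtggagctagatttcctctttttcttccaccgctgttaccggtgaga
Vegfb, chr19:6987652-6987901, minus strand: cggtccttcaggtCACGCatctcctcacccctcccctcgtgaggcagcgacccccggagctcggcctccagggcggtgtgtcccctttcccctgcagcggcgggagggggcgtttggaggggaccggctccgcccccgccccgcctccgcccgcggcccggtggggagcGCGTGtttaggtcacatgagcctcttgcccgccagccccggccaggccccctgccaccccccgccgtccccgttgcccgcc
Vegfc, chr8:54077282-54077531, plus strand: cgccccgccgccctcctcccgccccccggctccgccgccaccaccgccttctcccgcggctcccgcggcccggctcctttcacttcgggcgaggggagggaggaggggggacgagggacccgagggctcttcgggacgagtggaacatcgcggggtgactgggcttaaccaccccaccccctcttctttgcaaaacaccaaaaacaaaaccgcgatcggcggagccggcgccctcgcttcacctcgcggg
The Vegfa window held 1 CCAAT, at bases 235 to 231 before the start, and no HIF core. The Vegfb window held 2 HIF cores, which begin 237 and 81 bases before the start, and no CCAAT, and the Vegfc window held neither. Over 32851 such windows of 27025 genes, 33.8% held a CCAAT and 38.6% a HIF core, so each match is common. A further RefSeq start of Vegfa, inside the gene, had a CCAAT at 60 and HIF cores at 218 and 211 bases before it. Among the other genes, the window of Edn1 held a CCAAT at 203, and HIF cores were found for Adm at 90 and 54, Nrp1 at 166, Nrp2 at 207 and 160, and Pgf at 124. The RefSeq start of Edn1 lies 206 bases inside the deposited gene span, so its CCAAT falls within that span. A further RefSeq start of Pgf, 1314 bases inside the gene, had neither motif. A match describes letters only, and sites farther than 250 bases before a start were not searched.

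Vegfa (ENSMUSG00000023951) spans chr17:46016993-46032377 in the deposited gene models on mm10, Vegfb (ENSMUSG00000024962) chr19:6982473-6987651, Vegfc (ENSMUSG00000031520) chr8:54077532-54186454 and Pgf (ENSMUSG00000004791) chr12:85166639-85177296. Edn1 (ENSMUSG00000021367) spans chr13:42301270-42307989, Adm (ENSMUSG00000030790) chr7:110627661-110629820, Nrp1 (ENSMUSG00000025810) chr8:128359073-128505462 and Nrp2 (ENSMUSG00000025969) chr1:62703285-62818695. The values are for whole genes, so the isoforms of Vegfa and the membrane and soluble forms of the neuropilins are not resolved.

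Because FPKM is per length, the 4 VEGF ligands can be added. Their sum was 176 ± 22.4 FPKM in Control, 45.9 ± 0.520 in DDC, then 159 ± 15.5 in R15. Vegfa made up 90.8 ± 1.88% of it in Control, 75.9 ± 2.01% in DDC and 90.8 ± 1.53% in R15, and the ratio of Vegfa to Vegfb went from 11.4 ± 2.50 to 3.31 ± 0.393 and then to 11.8 ± 1.51. In each DDC library Vegfa was between 3.05 and 3.88 times Vegfb, and in each other library between 8.38 and 14.1 times. The order of levels among the ligands, Vegfa over Vegfb over Vegfc over Pgf, was the same in all 11 libraries.

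The other genes of the VEGF pathway were few at these levels, and 3 of 6 were tested. In DDC against Control 2 of them fell and none rose, and in R15 against DDC the same 2, Flt1 and Kdr, rose. Kdr was at 8.37, 12.8, 44.4 and 31.9 FPKM in Control, 3.97, 0.875, 1.87 and 2.96 in DDC, then 5.66, 17.8 and 14.6 in R15. DDC was below Control in every library, and the Control libraries spanned a wide range. Its log2 change was -2.71 ± 0.54 (adjusted p = 0.0013, limma) and then 1.96 ± 0.58 (adjusted p = 0.014). Flt1 had 5.62 ± 2.39 FPKM in Control, 0.585 ± 0.272 in DDC, then 3.49 ± 2.29 in R15, with log2 changes of -2.00 ± 0.37 (adjusted p = 8.2e-04, limma) and 1.36 ± 0.40 (adjusted p = 0.013). Without R15 2 neither rise passed: Kdr gave 1.67 (adjusted p = 0.052, limma) and Flt1 1.01 (adjusted p = 0.054). Without the 5 libraries with pancreatic transcripts, Flt1 in R15 against DDC gave 1.30 (adjusted p = 0.095, limma). Flt4, the receptor of Vegfc, had 11.1 ± 6.49, 5.65 ± 0.875 and 8.22 ± 3.31 FPKM and did not pass in either comparison. Its log2 difference in DDC was -0.70 ± 0.37 (adjusted p = 0.12, limma), and -1.01 without Control 1 (adjusted p = 0.024). Vegfd, the other Flt4 ligand, was at 0.334 ± 0.0800, 0.143 ± 0.0312 and 0.359 ± 0.120 FPKM, under the filter and so not tested. Each DDC library of Vegfd lay below every Control and R15 library.

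Flt1 and Kdr are themselves endothelial genes, and the endothelial markers moved with them. In DDC against Control 15 of the 16 endothelial markers fell and none rose, with a median log2 change of -2.09, and in R15 against DDC 14 rose and none fell. That second count was 6 without DDC 2, 9 without DDC 3, 5 without R15 2, 5 without R15 3 and 6 without the 5 libraries with pancreatic transcripts. None of the 16 was at 0 in any library. With the mean endothelial level of each library as a covariate, the log2 change of Flt1 in DDC against Control was -0.62 (adjusted p = 0.14, limma), while that of Vegfa was still called, as it was under all 24 alternatives, with values from -2.34 to -2.04. The endothelial level of every DDC library lay under that of every Control and R15 library. The adjusted values therefore reach beyond the levels the groups share and do not give the endothelial part of either change. This holds wherever the covariate is used here.

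The neuropilins differed more within Control than between the groups. Nrp1 was at 11.8, 14.7, 38.9 and 27.3 FPKM in Control, 17.3, 16.0, 15.4 and 17.6 in DDC, then 12.2, 24.1 and 20.1 in R15. Nrp2 was at 1.49, 1.77, 5.26 and 3.74 FPKM in Control, 2.77, 2.52, 2.68 and 3.09 in DDC, then 1.01, 3.39 and 2.24 in R15. The DDC libraries lay inside the Control range for both genes. For Nrp1, DDC against Control gave -0.32 (interval -1.05 to 0.42; adjusted p = 0.42, limma), R15 against DDC 0.12 (-0.68 to 0.92; adjusted p = 0.78) and R15 against Control -0.19 (-0.99 to 0.61; adjusted p = 0.75). For Nrp2 they gave -0.01 (-0.70 to 0.68; adjusted p = 0.98, limma), -0.30 (-1.04 to 0.44; adjusted p = 0.46) and -0.31 (-1.05 to 0.43; adjusted p = 0.57). These intervals leave room for a change of either sign.

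**Figure D2:**
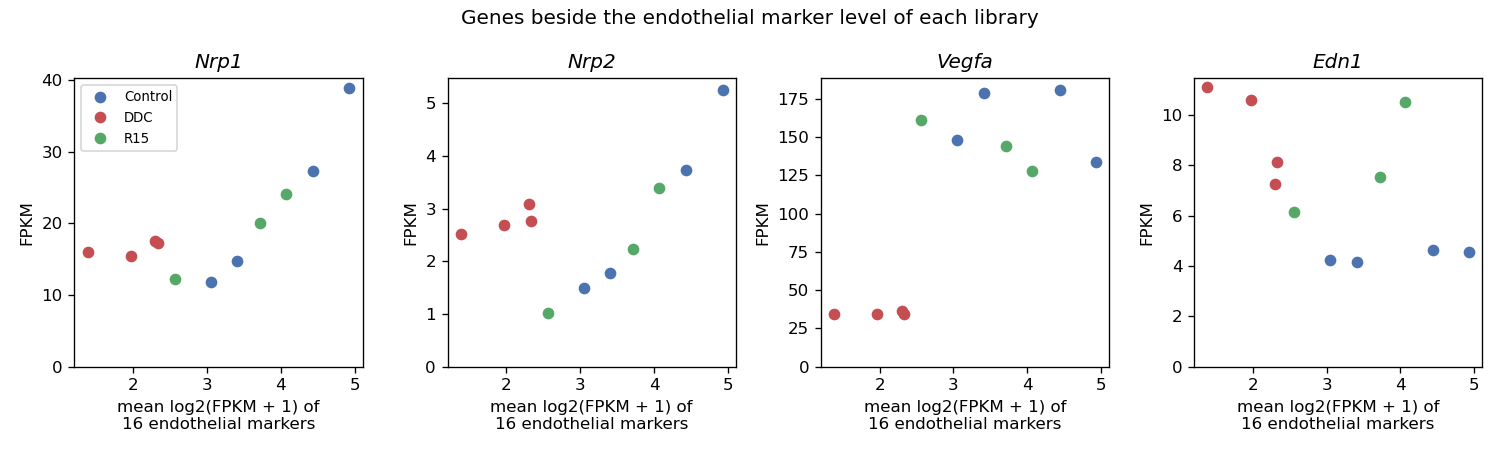
FPKM of Nrp1, Nrp2, Vegfa and Edn1 (vertical axes) against the mean log2(FPKM + 1) of 16 endothelial markers (horizontal axes), 1 point per library, coloured by group. Within Control and within R15, Nrp1 and Nrp2 follow the endothelial level library by library, whereas the DDC libraries sit at its low end (1.38 to 2.33) with Nrp1 at 15.4 to 17.6 FPKM.

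Both neuropilins followed the endothelial markers among the libraries of Control and of R15. The mean log2 endothelial level was 3.05, 3.41, 4.93 and 4.44 in Control 1 to 4 and 2.56, 4.07 and 3.72 in R15 1 to 3, and Nrp1 and Nrp2 had the same order in each group. In DDC it was 2.33, 1.38, 1.97 and 2.30, under every Control and R15 library, while macrophage markers were at their highest: 10 of 12 rose and none fell in DDC against Control, and 8 fell in R15 against DDC. The summed macrophage level had the same order as the endothelial level in R15 1 to 3 (147, 794 and 177 FPKM). It had another order in Control 1 to 4 (144, 161, 137 and 135 FPKM). With the endothelial level as a covariate, the log2 difference of Nrp1 in DDC against Control was 1.02 (adjusted p = 0.0035, limma; 0.0035 to 0.94 over its 24 alternatives) and that of Nrp2 was 1.24 (adjusted p = 6.6e-04; 6.6e-04 to 1.0 over 23). In R15 against DDC it was -0.87 (adjusted p = 0.0037, limma; up to 0.93) for Nrp1 and -1.22 (adjusted p = 3.3e-04; up to 0.99) for Nrp2. The endothelial ranges of DDC and of the other groups do not overlap, so this adjustment reaches beyond the levels the groups share. The part of endothelial or macrophage transcripts in the neuropilin values was not tested.

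Of 12 semaphorins and plexins, the other ligands and co-receptors of the neuropilins, 9 were tested. In DDC against Control 2 rose and 4 fell, and in R15 against DDC 3 rose and 1 fell, beside 65.4% and 62.2% of all genes tested passing. Sema3b, a secreted semaphorin, was at 18.8, 20.1, 18.3 and 20.9 FPKM in Control, 8.47, 7.85, 9.91 and 7.83 in DDC, then 15.9, 13.8 and 14.7 in R15. Its groups did not overlap, and its log2 change was -1.11 ± 0.07 (adjusted p = 1.2e-06, limma) in DDC and 0.74 ± 0.08 (adjusted p = 4.2e-05) in R15 against DDC. Plxna3, a plexin that pairs with neuropilins, had 9.92 ± 1.28 FPKM in Control, 4.62 ± 0.214 in DDC, then 12.4, 10.1 and 10.4 in R15 1 to 3, a fall of 0.95 ± 0.09 on the log2 scale (adjusted p = 9.8e-06, limma) and then a rise of 1.08 ± 0.10 (adjusted p = 1.3e-05). Sema3f, which binds Nrp2, had 41.7 ± 3.57, 29.5 ± 1.30 and 35.4 ± 3.06 FPKM, with log2 changes of -0.48 ± 0.07 (adjusted p = 1.4e-04, limma) and 0.25 ± 0.07 (adjusted p = 0.013). Without R15 3 the rise of Sema3f was 0.19 (adjusted p = 0.061, limma), and the 1 fall among the list was not called.

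Edn1 was the only one of the 7 tested genes that rose in DDC, and it was above Control in R15 as well. It was at 4.23, 4.14, 4.54 and 4.65 FPKM in Control, 8.13, 11.1, 10.6 and 7.24 in DDC, then 6.16, 10.5 and 7.55 in R15. Every DDC and R15 library was above every Control library, and R15 overlapped DDC. The mean was 2.11-fold higher in DDC (9.27 ± 1.88 FPKM) and 1.84-fold higher in R15 (8.08 ± 2.23) than in Control (4.39 ± 0.242). The log2 change was 0.91 ± 0.16 (interval 0.56 to 1.26; adjusted p = 4.9e-04, limma) in DDC against Control, -0.19 ± 0.17 (-0.56 to 0.19; adjusted p = 0.36) in R15 against DDC and 0.73 ± 0.17 (0.35 to 1.10; adjusted p = 0.028) in R15 against Control. The last of these held in 17 of 24 alternatives, with adjusted p from 0.022 to 0.45. It did not pass by limma without Control 1 (adjusted p = 0.063), Control 3 (0.054), R15 2 (0.54 on the log2 scale; adjusted p = 0.076) or R15 3 (0.058). Without the 5 libraries with pancreatic transcripts, which leaves 1 Control library, the rise in DDC was 0.90 (adjusted p = 0.093, limma; 1.5e-04 to 0.093 over its alternatives).

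**Figure D3:**
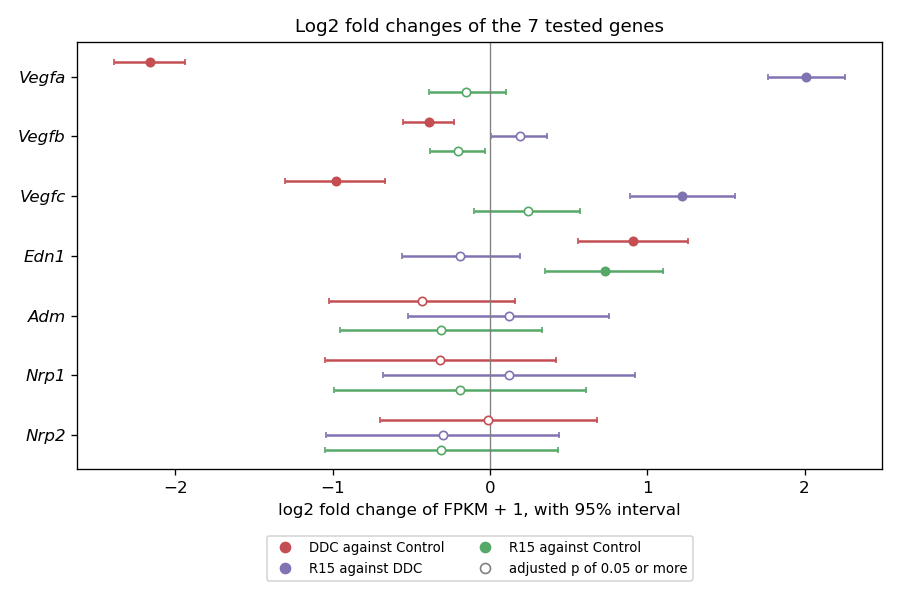
Log2 fold change of the 7 tested genes (horizontal axis, on log2(FPKM + 1)) with 95% intervals for DDC against Control, R15 against DDC and R15 against Control, with open symbols for an adjusted p of 0.05 or more. Vegfa lies at -2.16 and 2.01 with narrow intervals, and Edn1 is the gene with a filled symbol in R15 against Control (0.73).

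Of the 6 other genes of the endothelin pathway 3 were tested, and 1 rose and 1 fell in DDC against Control and again in R15 against DDC. Ece1, the enzyme that cuts endothelin-1 from its precursor, went the other way from Edn1. It had 36.5 ± 2.83 FPKM in Control, 28.2 ± 1.28 in DDC, then 37.0 ± 4.53 in R15, with log2 changes of -0.36 ± 0.08 (adjusted p = 0.0023, limma) and 0.37 ± 0.08 (adjusted p = 0.0032). Without the 5 libraries with pancreatic transcripts these were -0.38 (adjusted p = 0.077, limma) and 0.33 (adjusted p = 0.059), and with the endothelial covariate -0.09 (adjusted p = 0.40) and 0.18 (adjusted p = 0.071). Ece2, a related enzyme, had 0.764 ± 0.0666, 1.13 ± 0.0254 and 0.857 ± 0.0584 FPKM, with log2 changes of 0.27 ± 0.06 (adjusted p = 0.0022, limma) and -0.20 ± 0.06 (adjusted p = 0.020). Ece2 reached 1 FPKM only in the 4 DDC libraries, so it entered the test through the group where it was high, and it is the 1 rise in DDC and the 1 fall in R15 counted for the pathway. The Ece2 fall did not pass without R15 1 (-0.18; adjusted p = 0.063, limma) or without R15 3 (-0.19; adjusted p = 0.059). Both receptors were low: Ednrb had 0.860 ± 0.181, 0.432 ± 0.173 and 0.914 ± 0.534 FPKM and did not pass, with a log2 difference of -0.38 ± 0.17 in DDC (adjusted p = 0.077, limma; 0.013 without R15 1). Ednra, at 0.0153 ± 0.00732, 0.0336 ± 0.0151 and 0.0616 ± 0.0695 FPKM, was under the filter.

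Adm was low and varied most in Control, where it was at 0.868, 0.278, 1.48 and 2.55 FPKM. In DDC it was at 0.466, 0.504, 0.525 and 0.910, and in R15 at 0.561, 1.05 and 0.621. The groups overlapped in all 3 comparisons, since Control 2 was the lowest library, Control 4 the highest, and DDC 4 lay above R15 1 and R15 3. DDC against Control gave a log2 difference of -0.43 (interval -1.02 to 0.16; adjusted p = 0.18, limma), R15 against DDC 0.12 (-0.52 to 0.76; adjusted p = 0.73) and R15 against Control -0.31 (-0.95 to 0.33; adjusted p = 0.50). The first passed without Control 2, at -0.68 (adjusted p = 0.018, limma; up to 0.55 over 23 alternatives). Without the 5 libraries with pancreatic transcripts it was -1.12, a fit that leaves 1 Control library, Control 4, the highest of all.

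Of 7 other genes that make, resemble or receive adrenomedullin, 6 were tested. In DDC against Control 2 rose and 3 fell, and in R15 against DDC 3 rose and 1 fell. Ramp3, which with the receptor Calcrl forms an adrenomedullin receptor, was at 2.63, 4.13, 3.20 and 3.43 FPKM in Control, 10.5, 10.8, 10.4 and 9.00 in DDC, then 5.18, 8.36 and 5.02 in R15. DDC was above Control and R15 lay between them with no overlap. The log2 change of Ramp3 was 1.37 ± 0.15 (adjusted p = 2.2e-05, limma) in DDC, -0.67 ± 0.16 (adjusted p = 0.0044) in R15 against DDC and 0.71 ± 0.16 (adjusted p = 0.025) in R15 against Control. The last did not pass without Control 1 (adjusted p = 0.058, limma), Control 3 (0.055) or R15 2 (0.051), and without the 5 libraries with pancreatic transcripts the fall in R15 was -0.54 (adjusted p = 0.074).

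Ramp2, the partner in the other adrenomedullin receptor, did not pass, with 29.4 ± 4.33, 28.3 ± 0.721 and 26.4 ± 2.55 FPKM and a log2 difference of -0.04 ± 0.09 in DDC (adjusted p = 0.72, limma). Ramp1, which with Calcrl binds the related peptide CGRP, had 15.0 ± 2.36, 10.4 ± 0.586 and 17.1 ± 2.87 FPKM, with log2 changes of -0.48 ± 0.12 (adjusted p = 0.0043, limma) and 0.65 ± 0.12 (adjusted p = 0.0012). Without the 5 libraries with pancreatic transcripts the Ramp1 fall was -0.39 (adjusted p = 0.14, limma). Calcrl, itself high in endothelium, was at 2.52, 4.17, 12.8 and 7.99 FPKM in Control, 1.58, 0.969, 1.36 and 1.69 in DDC, then 2.41, 10.0 and 7.35 in R15, in the same order as the endothelial markers within Control and within R15. Its log2 changes were -1.53 ± 0.45 (adjusted p = 0.012, limma) and 1.51 ± 0.48 (adjusted p = 0.019). The Calcrl rise did not pass without R15 2 (1.16; adjusted p = 0.078, limma) or R15 3 (1.36; adjusted p = 0.067), and with the endothelial covariate the change in DDC was 0.33 (adjusted p = 0.20).

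Pam, the enzyme that amidates adrenomedullin and other peptides, shared with Edn1 a level in R15 that stayed above Control. It was at 6.93, 9.17, 10.4 and 8.98 FPKM in Control, 13.0, 12.8, 13.5 and 12.0 in DDC, then 13.2, 14.5 and 13.6 in R15. All DDC and R15 libraries were above all Control libraries. The log2 change was 0.50 ± 0.10 (adjusted p = 0.0010, limma) in DDC and 0.59 ± 0.10 (adjusted p = 0.0093) in R15 against Control, and R15 against DDC gave 0.09 ± 0.10 (adjusted p = 0.47). Ackr3, a scavenger receptor for adrenomedullin and chemokines, had 2.15 ± 0.221, 0.600 ± 0.194 and 1.64 ± 0.187 FPKM, a fall of 0.98 ± 0.10 on the log2 scale (adjusted p = 1.3e-05, limma) and a rise of 0.73 ± 0.10 (adjusted p = 2.2e-04).

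**Figure D4:**
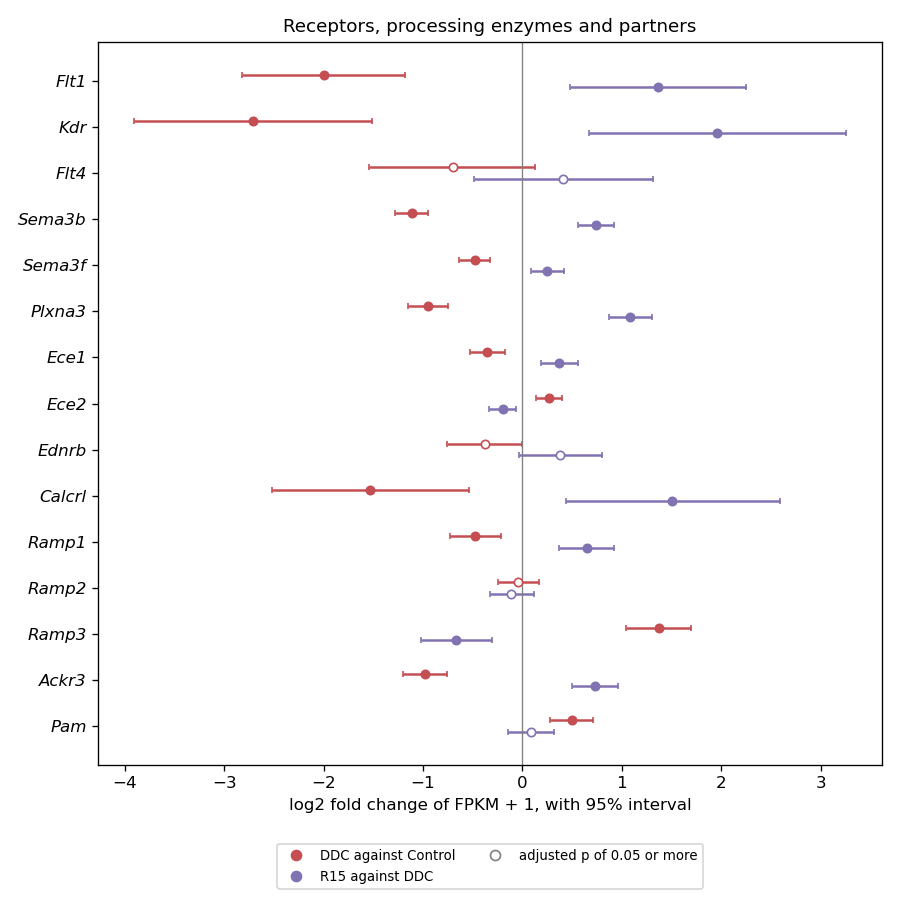
Log2 fold change (horizontal axis, on log2(FPKM + 1)) with 95% intervals of receptors, processing enzymes and partners of the neuropilins, for DDC against Control and R15 against DDC, with open symbols for an adjusted p of 0.05 or more. Kdr (-2.71) and Flt1 (-2.00) fell in DDC with wide intervals, and Ramp3 (1.37) and Pam (0.50) rose.

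Ligands of other families moved in both directions. Of 16 other angiogenic ligands 12 were tested, and in DDC against Control 6 rose and 5 fell, with 3 rising and 4 falling in R15 against DDC. Angpt1, the agonist of the endothelial receptor Tek, was at 25.7, 31.4, 26.4 and 30.7 FPKM in Control, 8.24, 8.16, 6.29 and 6.84 in DDC, then 28.0, 21.5 and 27.0 in R15. As for Vegfa, the DDC libraries were below all others, and the log2 change was -1.82 ± 0.11 (adjusted p = 6.4e-07, limma) and then 1.66 ± 0.12 (adjusted p = 3.7e-06). Pdgfb, the growth factor that recruits pericytes, was at 13.3, 15.7, 10.3 and 14.7 FPKM in Control, 53.9, 55.4, 55.5 and 46.0 in DDC, then 21.2, 27.8 and 21.9 in R15. It moved opposite to Vegfa and its groups did not overlap, with a log2 change of 1.90 ± 0.13 (adjusted p = 1.2e-06, limma) in DDC, -1.13 ± 0.14 (adjusted p = 7.8e-05) in R15 against DDC and 0.77 ± 0.14 (adjusted p = 0.010) in R15 against Control.

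Angptl4, an inhibitor of lipoprotein lipase with effects on vessels, rose from 0.750 ± 0.0688 to 4.71 ± 1.78 FPKM in DDC (log2 change 1.65 ± 0.20, adjusted p = 5.7e-05, limma) and was at 1.65 ± 0.464 in R15. All 4 Control libraries of Angptl4 were under 1 FPKM, so it entered the test through its DDC and R15 libraries. Efna1, a ligand of Eph receptors, rose by 0.47 ± 0.09 in R15 against DDC (adjusted p = 0.0011, limma). Ccn1, a matrix protein that binds integrins, had 56.9 ± 7.82, 109 ± 20.0 and 149 ± 32.6 FPKM and was higher in R15 than in Control by 1.36 ± 0.18 on the log2 scale (adjusted p = 0.0021, limma).

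Of 8 angiogenesis inhibitors 7 were tested, and 4 rose and 1 fell in DDC against Control, with 2 rising and 2 falling in R15 against DDC. Thbs1, thrombospondin-1, was at 14.0, 6.93, 10.6 and 9.93 FPKM in Control, 49.3, 54.2, 48.1 and 49.1 in DDC, then 16.3, 27.8 and 14.5 in R15, so that each group stood above Control without overlap. Its log2 change was 2.20 ± 0.21 (adjusted p = 1.1e-05, limma) and then -1.37 ± 0.23 (adjusted p = 5.6e-04). Vash1, vasohibin-1, rose by 1.06 ± 0.16 in DDC (adjusted p = 2.2e-04, limma), and Timp3, a protease inhibitor that blocks Kdr, fell by 0.67 ± 0.09 (adjusted p = 8.3e-05). Serpinf1, which encodes PEDF, was highest after withdrawal of the diet, at 11.1, 6.24 and 10.7 FPKM in R15 against 1.21 ± 0.589 in Control and 2.50 ± 0.757 in DDC. The log2 difference of Serpinf1 between R15 and Control was 2.22 ± 0.24 (adjusted p = 8.8e-04, limma). This call, like those of Pdgfb, Ccn1 and Pam in R15 against Control, rests on the spread shared by all 3 groups.

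Hypoxia-inducible factors are known activators of Vegfa, and Edn1 and Adm are also among their target genes, so the HIF genes and other known targets were set beside them. Of 9 HIF factors and regulators 8 were tested, and 1 rose and 4 fell in DDC against Control, while 4 rose and 1 fell in R15 against DDC. Epas1, which encodes HIF-2 alpha, was at 43.3, 48.1, 48.2 and 51.7 FPKM in Control, 29.2, 25.0, 25.5 and 26.1 in DDC, then 45.5, 45.5 and 50.9 in R15. The DDC libraries were below all others, with log2 changes of -0.83 ± 0.07 (adjusted p = 3.0e-06, limma) and 0.82 ± 0.07 (adjusted p = 1.1e-05). Hif1a transcript did not pass, at 18.0 ± 0.671, 17.7 ± 0.881 and 18.2 ± 0.656 FPKM, with a log2 difference of -0.03 ± 0.04 in DDC (adjusted p = 0.60, limma). HIF proteins are controlled largely by their breakdown, which RNA does not report.

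Among the regulators, Egln1, a prolyl hydroxylase that marks HIF for breakdown, fell by 0.48 ± 0.03 on the log2 scale in DDC (adjusted p = 1.3e-06, limma). Vhl, part of the ligase that follows it, rose by 0.28 ± 0.04 (adjusted p = 9.7e-05, limma). Arnt, the partner subunit of the HIF alpha proteins, rose by 0.33 ± 0.05 in R15 against DDC (adjusted p = 2.9e-04, limma). The counts of 1 rise in DDC and 1 fall in R15 against DDC became 2 and 2 without Control 4.

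The 24 other HIF target genes did not move as 1 group. Of the 22 tested, 7 rose and 9 fell in DDC against Control, with a median log2 change of -0.09, and 8 rose and 8 fell in R15 against DDC, with a median of 0.04. Ndrg1, a stress-responsive gene, went the way of Vegfa, at 27.2 ± 4.39, 9.77 ± 0.747 and 27.0 ± 1.86 FPKM, with log2 changes of -1.38 ± 0.10 (adjusted p = 1.7e-06, limma) and 1.38 ± 0.11 (adjusted p = 5.9e-06). Bnip3, a mitophagy receptor, had 10.4 ± 0.728, 5.11 ± 0.480 and 8.27 ± 0.808 FPKM, with a log2 change of -0.91 ± 0.08 in DDC (adjusted p = 4.5e-06, limma). Ddit4, an inhibitor of mTORC1, went the opposite way, at 28.2, 21.4, 28.2 and 37.4 FPKM in Control, 105, 96.7, 109 and 105 in DDC, then 28.0, 30.0 and 33.3 in R15. Its log2 changes were 1.84 ± 0.13 (adjusted p = 1.8e-06, limma) and -1.74 ± 0.14 (adjusted p = 8.3e-06). Higd1a, a mitochondrial protein, also fell in R15 against DDC, by 0.57 ± 0.07 (adjusted p = 1.2e-04, limma).

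**Figure D5:**
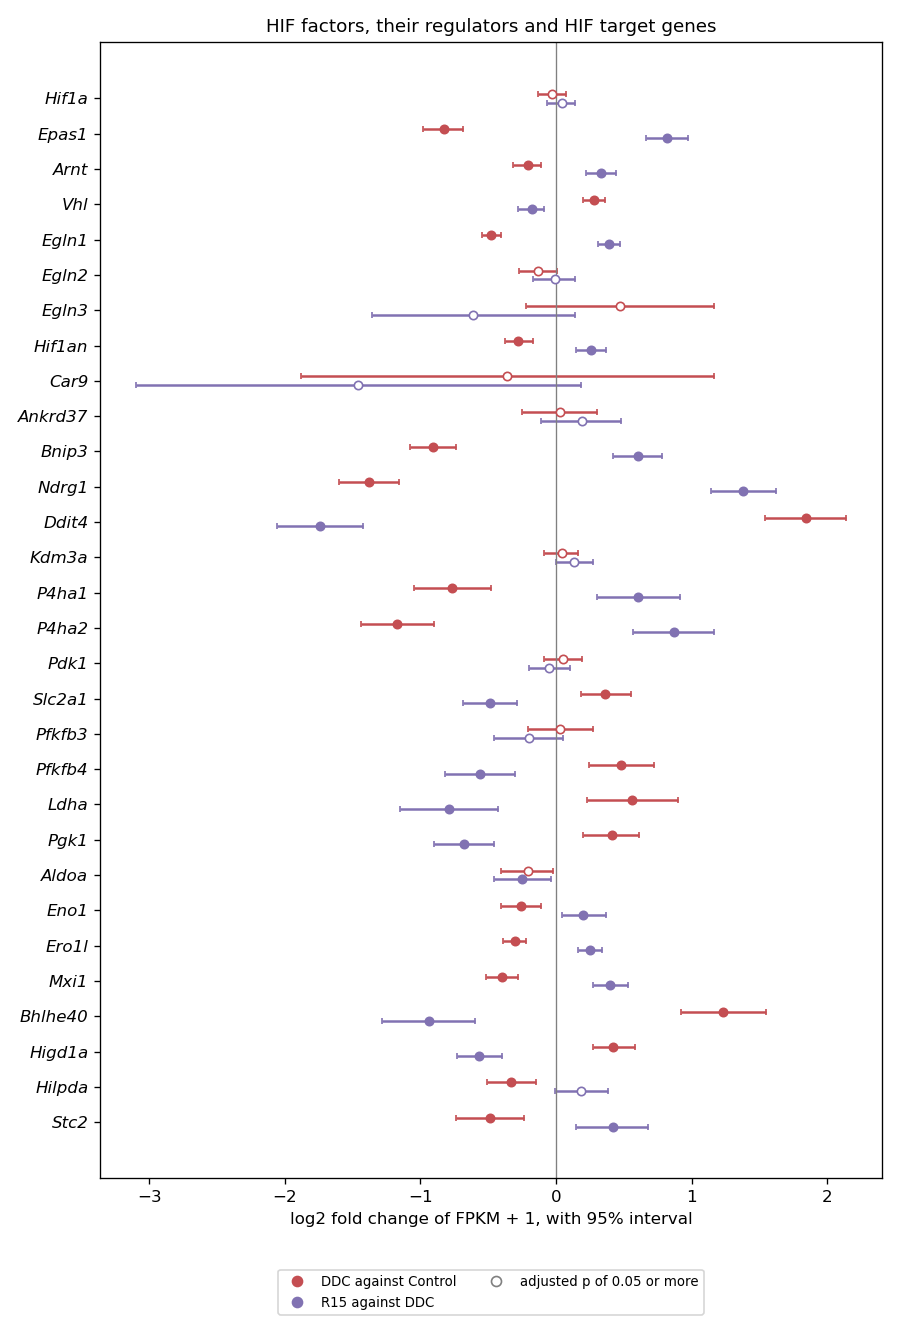
Log2 fold change (horizontal axis, on log2(FPKM + 1)) with 95% intervals of the tested HIF factors, regulators and target genes for DDC against Control and R15 against DDC, with open symbols for an adjusted p of 0.05 or more. Target genes lie on both sides of 0 in DDC against Control, from -1.38 for Ndrg1 to 1.84 for Ddit4.

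The levels of the 8 genes kept a common order for the most abundant ones. By group mean, Vegfa (161, 34.8 and 144 FPKM in Control, DDC and R15) was the highest and Pgf the lowest throughout. Nrp1 (23.2 ± 12.4, 16.6 ± 1.06 and 18.8 ± 6.07 FPKM) came next, but in Control and in R15 its range overlapped that of Vegfb, so those neighbours do not differ beyond their spread. In DDC Nrp1 was above Vegfb (10.6 ± 0.936) in each library, and Vegfb overlapped Edn1. Edn1 (4.39, 9.27 and 8.08 FPKM) followed, and in Control its range overlapped that of Nrp2. Nrp2, Vegfc and Adm were the next lower ones, at 3.07 ± 1.77, 1.68 ± 0.348 and 1.30 ± 0.973 FPKM in Control, with overlapping ranges. In DDC they stood at 2.76 ± 0.237, 0.345 ± 0.0241 and 0.601 ± 0.207 FPKM with no overlap, and Vegfc was the lowest of the 3. In R15 they were at 2.22 ± 1.19, 2.20 ± 0.780 and 0.745 ± 0.269 FPKM, and Vegfc was above Adm in each library.

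Library R15 2 stood apart from the other R15 libraries for several of the genes. It had the highest R15 value of Vegfc, Pgf, Edn1, Adm, Nrp1 and Nrp2 and the lowest of Vegfa. It also had the highest summed endothelial level of R15 (308 FPKM against 95.0 and 244) and the highest macrophage level (794 against 147 and 177). The part of these cells in the R15 2 values was not tested.

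The genes whose log2(FPKM + 1) was most like that of each gene over the 11 libraries were taken from 10002 genes of mean FPKM of at least 5, as a description. For Vegfa these were Ezh1 (Pearson r = 0.997), Kyat1 (0.996) and Deptor (0.996), for Vegfb Pycrl (0.956), Plcb3 (0.943) and Cmtm8 (0.943), and for Vegfc Trmt1l (0.991), Il6st (0.983) and Wac (0.983). For Edn1 they were Nfkb2 (0.977), Psip1 (0.971) and Trim8 (0.962). For Adm they were Fam117b (0.929), Gm11545 (0.896) and Duox2 (0.872). For Nrp1 they were Fcgr2b (0.951), Plxnc1 (0.950) and Fyn (0.948), and for Nrp2 Stab1 (0.973), Cd38 (0.966) and Fyn (0.965). Stab1 and Fcgr2b are expressed by sinusoidal endothelial cells and macrophages. The points share the libraries and the group differences, so high values arise for many genes.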

How the data were processed

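Stranded mRNA libraries were made from RNA of EpCAM-selected liver cells, per the labels. A single table gave deposited FPKM values for every gene in each library, and its build was mm10, per the submitters' processing notes. How the reads were aligned and counted, and on which gene models, was not given in the sources used here. Whole reads recovered from FPKM (100% of nonzero values whole within 0.001, gene length taken as the listed length plus 1) served for depth and for 1 alternative.

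The test was a linear model of log2(FPKM + 1) in limma 3.58.1 (R 4.3.3) with 3 groups, 11 libraries, no covariate and a variance trend, over 15264 genes that reached 1 FPKM in 3 or more libraries. All p are 2-sided, with Benjamini-Hochberg adjustment over these genes and a threshold of 0.05. Scripts were tested on simulated data. Named were all 8 genes, their receptors and partners by role, and the 3 genes of smallest p in each list. The 8 genes, lists and alternatives were chosen with earlier results of these data known. Alternatives were pseudocounts of 0.1 and 5, no filter, a filter at FPKM 5, 3 scalings, robust eBayes, voom on reads, fits of only the 2 groups compared, a replicate block, an endothelial covariate, and fits without each library in turn or without all 5 that held pancreatic transcripts.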

Additional observations from a re-analysis of the deposited data

Results flagged for a closer look

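Adm in DDC 4 stood at 0.910 FPKM, while the other 3 DDC libraries were at 0.466 to 0.525, a gap of 0.865 of the whole range of the group. This is above the 95% critical value of Dixon's test for 4 samples, which chance passes in a small share of groups. No other value of the 8 genes was singled out in Control or DDC, and groups of 3 such as R15 are not tested this way.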

How the results depend on the processing

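Vegfa was called in all 24 alternatives in DDC against Control (-2.34 to -2.04) and in R15 against DDC (1.90 to 2.15), and Vegfc in all 23 that kept it (-2.24 to -0.32 and 0.42 to 2.59, widest between pseudocounts of 0.1 and 5). The number of the 8 genes higher in DDC than in Control was 1, and became 0 without the 5 libraries with pancreatic transcripts and 3 with the endothelial covariate. The number higher in R15 than in DDC was 2 and became 1 under a filter at FPKM 5, which leaves Vegfc out, and the number lower was 0 and became 2 with the endothelial covariate. The number higher in R15 than in Control was 1, with 0 when only the 2 groups were compared and without the libraries with pancreatic transcripts, and 0 to 1 when each library was left out in turn.

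Signs turned for Adm, Nrp1 and Nrp2, which did not pass in the reported fit. With the covariate, Nrp1 and Nrp2 passed in DDC against Control and in R15 against DDC. Adm passed in 2 alternatives of DDC against Control, 1 of them the fit that leaves 1 Control library. With the endothelial covariate, DDC against Control gave 0.28 for Adm, 1.02 for Nrp1 and 1.24 for Nrp2, R15 against DDC -0.41 for Adm and -0.87 for Nrp1, and R15 against Control 0.15 for Nrp1 and 0.02 for Nrp2. Nrp2 in DDC against Control was 0.03 at a pseudocount of 0.1, 0.02 by voom and -0.21 to 0.23 with each library left out. With each library left out, R15 against DDC ran from 0.00 to 0.21 for Adm, -0.07 to 0.39 for Nrp1 and -0.56 to 0.01 for Nrp2, and Nrp1 in R15 against Control from -0.45 to 0.10. Vegfb in DDC against Control was -0.30 (adjusted p = 0.068, limma) with the endothelial covariate. The causes were not tested.

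Scaling to one FPKM total moved the median log2 change of all genes in R15 against DDC from 0.04 to 0.14 and the calls from 5099 higher and 4397 lower to 6172 and 3305. Over all results of single genes of the 8, 461 values kept direction and side of the threshold and 18 turned sign. Among those that kept their sign, 7 gained and 9 lost the call. With the endothelial covariate, Nrp1 in DDC against Control and R15 against DDC turned sign and passed as well. So did Nrp2 in DDC against Control. Replicate numbers did not pair the libraries: same-numbered Control and DDC libraries had residual correlations of 0.30, 0.18, -0.02 and 0.25, and DDC and R15 libraries -0.16, -0.04 and -0.27. With the replicate number as a block, Edn1 in R15 against Control was 0.69 (adjusted p = 0.053, limma), which left 0 genes higher in that comparison. The other calls of the 7 genes were the same with the block. Depth limits what can be said of Pgf, at 0 to 26 reads per library, and of Ednra, at 3 to 49. Vegfd, at 17 to 83 reads per library, was not tested because it was under the filter.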

Other observations

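Some of the 8 genes overlap other entries of the table. Adm lies across Gm28863, an antisense gene at 0.0329 to 0.0401 FPKM in Control, 0.141 to 0.357 in DDC and 0.145 to 0.367 in R15. Nrp1 overlaps Mir1903, listed at 21.5 to 53.7 FPKM. Nrp2 overlaps the antisense gene Gm29083, which was at 0 in all libraries, and Gm37121, which had 3 to 34 reads (0.0203 to 0.198 FPKM). The libraries kept the strand, per the labels, and whether the counting used it was not given, so reads of these pairs cannot be told apart.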
